A study of Mus musculus with 9 samples.

Results

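Confluent, growth-arrested 3T3-L1 pre-adipocytes were profiled on 3 microarrays after treatment with vehicle, the state from which adipocyte differentiation is induced. The arrays are those whose titles name the vehicle control, 3 of the 9 arrays in the series, and no measured value entered that choice. The other 6 arrays came from cells given IBMX (0.5 mM) and dexamethasone (1 µM) for 6 h, 3 of them with an siRNA against CD24 and 3 with a scrambled siRNA (100 nmol). All cells were grown in 12-well plates and held for 48 h after reaching confluence. Neither an siRNA nor an exposure time is stated for the vehicle cells, so the hormone mix and the transfection cannot be told apart in any comparison with these arrays. Nor are replicates described as separate cultures, and the p-values therefore measure only a spread between samples that may be technical. Each of the 22180 genes with a probe set assigned to that gene alone was represented by its brightest probe set and ranked by its mean log2 intensity over the 3 vehicle arrays.

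3T3-L1 is an established clonal line of mouse fibroblasts that is committed to the fat lineage but keeps a fibroblast shape until it is induced. In the standard protocol the cells first stop dividing at confluence. IBMX then blocks the breakdown of cyclic AMP, dexamethasone activates the glucocorticoid receptor, and insulin acts through the IGF1 and insulin receptors. These signals raise the transcription factors C/EBPβ and C/EBPδ, which switch on PPARγ and C/EBPα, and these activate the genes of the mature fat cell.

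The brightest genes of the resting pre-adipocytes encoded matrix, cytoskeletal and secreted proteins beside the machinery of translation and respiration. The first gene in the ranking was B2m, the light chain of class I histocompatibility molecules, at 13.96, 13.77 and 13.89 on vehicle arrays 1, 2 and 3. Bgn, which encodes the small matrix proteoglycan biglycan, followed closely among protein-coding genes, at 13.68, 13.73 and 13.71. Vim, the intermediate filament protein of mesenchymal cells, was at 13.53, 13.50 and 13.57. None of these genes varied by more than 0.2 between arrays, and B2m, Bgn and Vim kept this order on each array. Among the 30 highest genes were also Gapdh (mean 13.51), the galectin Lgals1 (13.50), the chemokine Ccl2 (13.32), the growth factor binding protein Igfbp7 (13.28) and fibronectin, Fn1 (13.19). Of the 100 highest genes, 13 encoded ribosomal proteins, 9 were encoded by the mitochondrial genome, 4 were small noncoding RNAs, 1 was a predicted gene and 73 were others. The set was stable, with 74 of the 100 within the highest 100 on each of the 3 arrays. A rank here is one of probe-set brightness, since probe sets differ in how well they bind, and not of transcript abundance.

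**Figure D1:**
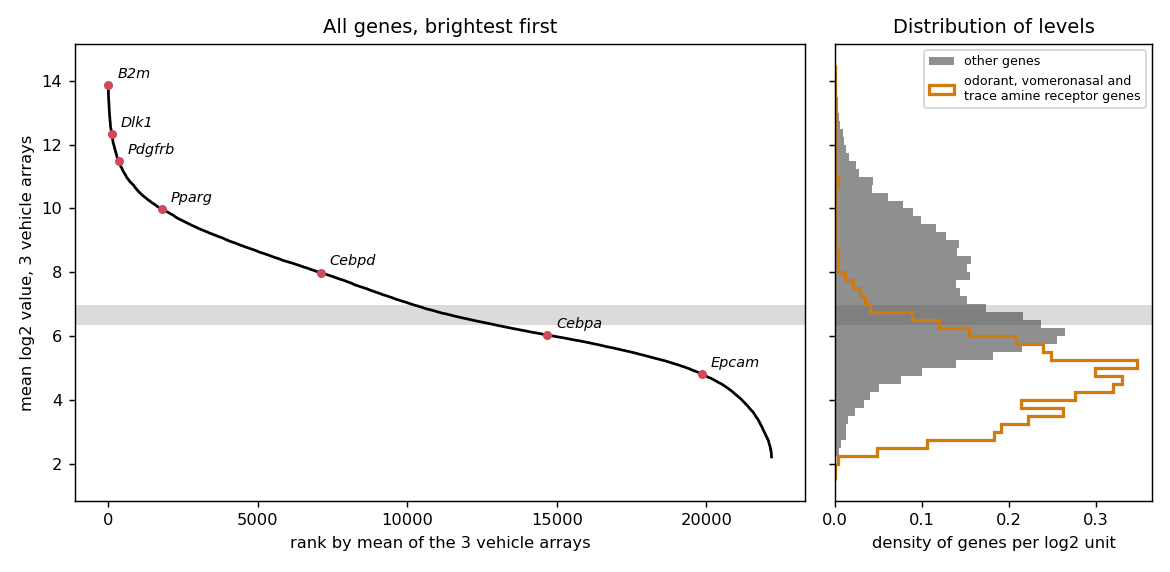
The left plot gives the mean log2 intensity of every gene over the 3 vehicle arrays (vertical axis) against its rank (horizontal axis), with 7 genes marked from B2m (13.87) down to Epcam. The right plot gives the density of the same means for the 1409 chemoreceptor genes and for all other genes, and the grey band spans the 3 arrays' background levels, from 6.35 to 6.98, which lie at the upper end of the chemoreceptor distribution.

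How far down the ranking a signal could be told from background was read from 1409 chemoreceptor genes. These encode odorant, vomeronasal and trace amine receptors, which fibroblasts are not known to use. The 95th percentile of these genes was 6.35 on vehicle array 1, 6.98 on array 2 and 6.52 on array 3, and array 2 had the highest such level of the 9 arrays. A gene was called above background when it exceeded that level on all 3 vehicle arrays. This held for 10035 of 22180 genes (45.2%), among them 9463 of 18964 protein-coding genes (49.9%), 251 of 1926 long noncoding RNAs and 86 of 478 miRNA genes. By construction of the level some receptors also passed, 45 of the 1409. The count was 6944 with the 99th percentile and 11367 with the median of the table as the level, within 1.5 times of the value given.

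The 3 arrays repeated each other closely for most genes. The median SD of a gene above background was 0.20 and the median range between the highest and lowest array was 0.38, or 1.30-fold. It was narrowest for the brightest genes, with a median SD of 0.13 above a level of 12 beside 0.21 for levels from 8 to 10. A range of at least 1 log2 unit, or 2-fold, was seen for 882 of the 13149 genes above background on at least 1 array (6.71%), and a range of at least 2 units for 119. Of the 882, 384 were highest on array 1 (2.92% of the 13149), 250 on array 2 (1.9%) and 248 on array 3 (1.89%). Leaving out an array can only narrow a range and so lower this number. It was 333 without array 1, 370 without array 2 and 557 without array 3.

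To show which of these baseline levels set the vehicle cells apart, each gene was compared with the mean of both IBMX/Dex groups in a limma fit over the 9 arrays. Of 12630 genes tested, 1505 (11.9%) passed an adjusted p of 0.05, 814 higher in vehicle (6.44%) and 691 lower (5.47%). Only 306 of them differed by at least 2-fold, 153 in each direction, and the median difference over all tested genes was -0.02. Same-numbered arrays of the 3 groups deviated together from their group means, and with the replicate number as a block 3696 genes passed (29.3%), 1899 higher (15%) and 1797 lower (14.2%). Without vehicle array 3 the unblocked count was 823. Counts of members passing are from the unblocked fit, and the blocked counts follow where they differ by more than 1.5 times. Unless a sentence says otherwise, each single gene given with a passing adjusted p for this comparison passed in every one of the 18 alternative fits that tested it, and differences are vehicle minus IBMX/Dex on the log2 scale.

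The arrays carried many but not all markers of a mesenchymal precursor, with the preadipocyte factor Dlk1 and both PDGF receptors bright. Of 17 measured precursor and fibroblast markers, 11 were above background, beside 45.2% of all genes, with a median level of 10.00 beside 6.75. Dlk1, the surface protein also known as Pref-1 that is lost during fat cell differentiation, was at 12.44, 12.27 and 12.30, rank 120 of all genes. Pdgfra and Pdgfrb, the receptors for platelet-derived growth factor that mark fat precursors in tissue, were at 11.54, 12.25 and 12.07 and at 11.46, 11.29 and 11.70. Each of these genes varied by under 0.8 between the 3 arrays. Thy1, a fibroblast surface glycoprotein, was at 10.79, 10.67 and 11.51, and the hyaluronan receptor Cd44 at 9.39, 9.14 and 9.60. Not all precursor markers of tissue were present: Cd34 lay at 6.64, 6.64 and 6.74 and was below the background level of array 2, and Pi16, Dpp4, Eng, Nt5e and Fap were not above background either.

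Pdgfrb, Pdgfra and Vcam1 were the precursor markers that passed against IBMX/Dex, all higher in vehicle, 3 of the 14 tested beside 6.44% of all genes. Under the replicate block 3 higher and 2 lower passed, beside 15% and 14.2%. Pdgfrb ranged from 9.60 to 10.15 (median 9.80) on the 6 IBMX/Dex arrays, and the difference was 1.63 ± 0.36 (95% interval, adjusted p 0.00053), or 3.10-fold. Pdgfra ranged from 10.61 to 11.17 (median 10.92) there, a difference of 1.07 ± 0.40 (adjusted p 0.0061). Vcam1, a cell adhesion molecule, read 11.23, 11.33 and 10.98 in vehicle and 9.93 to 10.51 (median 10.23) with IBMX/Dex (0.97 ± 0.32, adjusted p 0.0038). The 3 vehicle arrays lay above all 6 IBMX/Dex arrays for each of the 3 genes, an order that 10.4% of all tested genes had. Dlk1 did not pass, with a difference of 0.10 ± 0.20 (adjusted p 0.54).

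Of 18 transcription factors of mesenchymal lineages 13 were above background, beside 45.2% of all genes, with a median of 8.24, and 8 were at the 99th percentile level. Osr1, a zinc finger factor of connective tissue progenitors, was at 11.84, 11.91 and 12.29. Snai2 was at 11.38, 12.05 and 11.93, and the homeobox factor Prrx1 at 11.62, 11.76 and 11.68. Tcf21, Meox1 and Meox2 were not above background. Snai1, at 8.42, 7.63 and 8.55, was the only 1 of 15 tested members to pass, beside 11.9% of all genes. It was lower in vehicle by 0.95 ± 0.43 (adjusted p 0.014). With the replicate block 3 higher and 5 lower passed, beside 15% and 14.2%. In the unblocked fit 2 passed without vehicle array 1, scrambled array 1 or CD24 siRNA array 3.

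Markers of other cell types were close to background. None of 11 endothelial and none of 9 hepatocyte markers was above it, beside 45.2% of all genes. Above it were 1 of 10 epithelial, 1 of 10 osteoblast and chondrocyte, 1 of 14 skeletal muscle, 2 of 10 neural and 3 of 15 macrophage markers. The median levels of the 7 lists lay between 5.94 and 6.36. At the 99th percentile level none of the epithelial, osteoblast and chondrocyte or neural markers was above background, and at the table's median 6 macrophage, 3 epithelial, 3 muscle, 3 neural and 2 each of the endothelial, osteoblast and chondrocyte, and hepatocyte markers were. Of all 22180 genes, 6944 and 11367 exceeded these levels. In bulk RNA, fewer cells of a type and less RNA per cell cannot be told apart. The 3 macrophage markers were Cd14 (mean 8.34), Cd68 (8.03) and Lyz2 (8.02), while Adgre1, Itgam and Ptprc of the same list were below background on each array. The muscle marker was Des, the intermediate filament desmin, at 8.05, 8.18 and 7.99. It was higher than with IBMX/Dex by 0.70 ± 0.27 (adjusted p 0.0072), while the summed linear intensity of the 14 muscle markers ranged from 1175 to 1317 in vehicle and from 1135 to 1316 with IBMX/Dex.

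**Figure D2:**
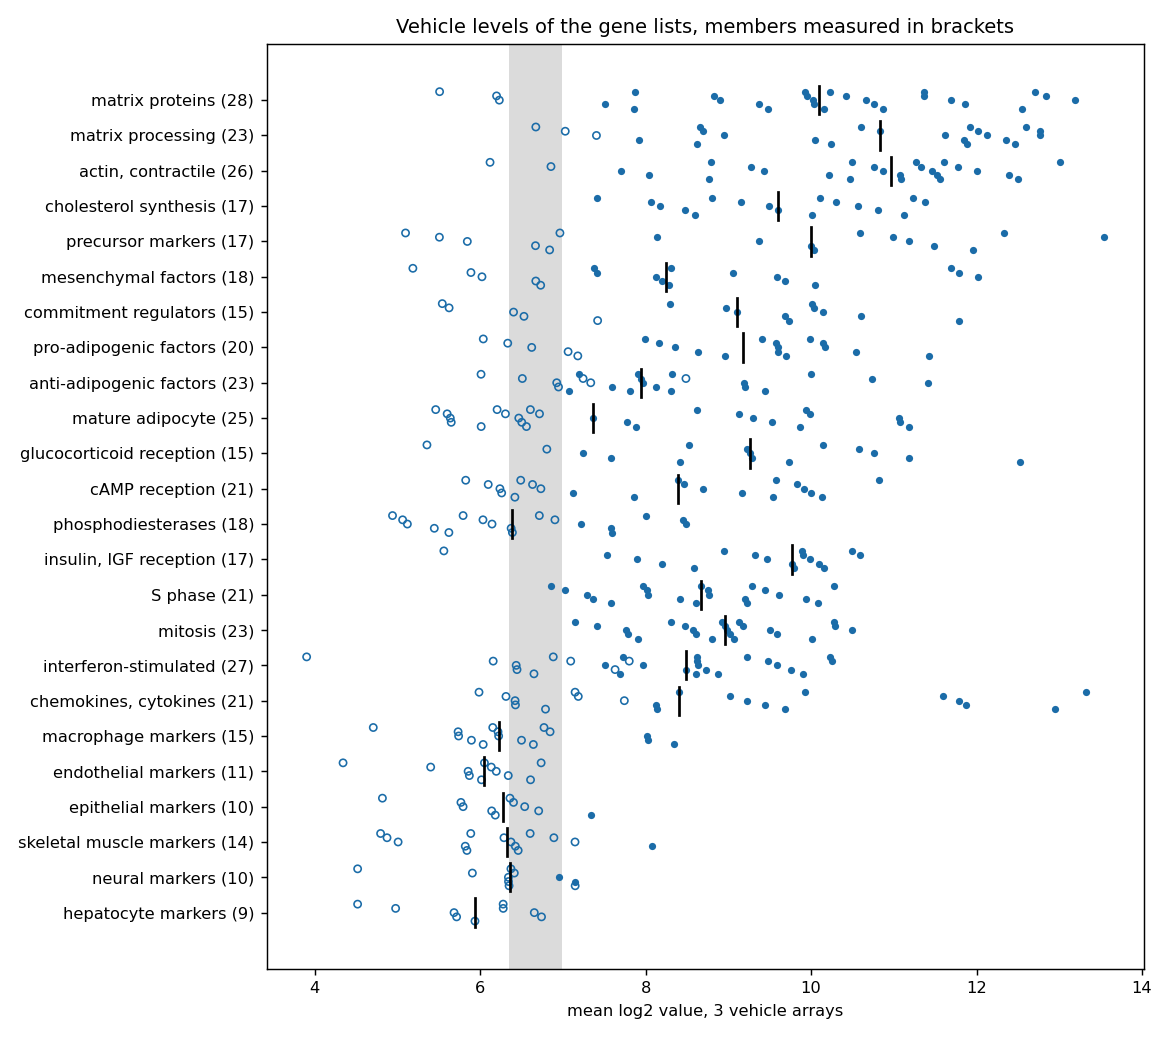
Each dot is 1 gene of the list named on the vertical axis at its mean log2 intensity over the 3 vehicle arrays (horizontal axis), filled where it exceeded background on all 3 arrays and open where it did not. Black bars are list medians, which run from 10.97 for actin and contractile genes down to 5.94 for hepatocyte markers, and the grey band spans the arrays' background levels (6.35 to 6.98).

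Matrix genes formed a large bright group. Of 28 fibrillar and basement membrane genes 25 were above background (median 10.10), and of 23 genes that process or crosslink matrix 20 were (median 10.83), beside 45.2% of all genes. Fn1 led them at 13.10, 13.12 and 13.34, followed by the basement membrane linker Nid1 at 12.85, 12.83 and 12.83. Col1a1 and Col1a2, the chains of type I collagen, were at 12.19, 11.74 and 11.64 and at 11.88, 11.71 and 11.49, each highest on array 1. Elastin (Eln), Col15a1 and Fbn2 were not above background. Among the processing genes the protease Mmp2 was at 12.63, 12.62 and 13.04, the cathepsin Ctsb at 12.58, 12.67 and 13.06, the crosslinking enzyme Lox at 12.51, 12.44 and 12.11, and the protease inhibitor Timp1 at 12.88, 12.11 and 12.40. Timp1 spread most of these 4, and the others stayed within 0.5.

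The small leucine-rich proteoglycans, which bind collagen fibrils, ranged widely. Of 11, 4 were above background, a share near the 45.2% of all genes, with biglycan at rank 3 and decorin (Dcn) at 12.83, 12.91 and 12.89. Lum, which encodes lumican, was at 5.03, 4.89 and 4.58, under background on every array, and Ogn lay between at 9.23, 8.45 and 6.39. Against IBMX/Dex, 5 of 25 fibrillar and basement membrane genes were higher and 1 lower in vehicle, beside 6.44% and 5.47% of all genes. Blocked counts were 8 and 4, beside 15% and 14.2%. The lower gene without the block was Lamc1, a laminin chain of basement membranes. It read 10.99, 10.54 and 10.73 beside 11.18 to 11.54 (median 11.48) with IBMX/Dex, a difference of -0.67 ± 0.28 (adjusted p 0.011). None of the 5 higher genes passed under every alternative, and the 6 in all became 2 without vehicle array 2, 1 without vehicle array 3, 3 and 2 without scrambled array 2 and 3, and 2 and 3 without CD24 siRNA array 2 and 3.

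Several genes of secreted signals and acute phase proteins were also bright in the resting cells. Of 21 chemokines and cytokines 13 were above background, and of 13 complement and acute phase genes 10 were, beside 45.2% of all genes. Ccl20, Cxcl2, Cxcl14, Il6, Il11, Il33, Lif and Tslp were not above background on all 3 arrays, nor were C2, C4b and Cfb. Ccl2 and Ccl7, attractants of monocytes, were at 13.41, 13.10 and 13.45 and at 12.89, 12.89 and 13.05, and the neutrophil attractant Cxcl5 was at 11.70, 12.05 and 11.05. Csf1, the growth factor of macrophages, was at 12.05, 11.56 and 12.02. The acute phase genes Saa3 (12.95, 13.04 and 13.35) and Lcn2 (11.95, 12.34 and 12.67) were each lowest on array 1 and highest on array 3.

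Of 18 chemokines and cytokines tested, 5 were higher and 1 was lower in vehicle, beside 6.44% and 5.47% of all genes. Under the replicate block 9 were higher and 4 lower, beside 15% and 14.2%. On the IBMX/Dex arrays Ccl2 ranged from 11.38 to 12.42 (median 11.97), a difference of 1.43 ± 0.48 (adjusted p 0.0041), and Ccl7 from 11.50 to 12.03 (median 11.74), a difference of 1.21 ± 0.31 (adjusted p 0.0012). Csf1 ranged from 10.62 to 11.08 (median 11.01), a difference of 0.95 ± 0.34 (adjusted p 0.005). The vehicle arrays of all 3 genes lay above every IBMX/Dex array, an order that 10.4% of all tested genes had. Il11, a cytokine of the IL-6 family that blocks fat cell formation in culture, went the other way: it was at 7.35, 6.62 and 7.47 in vehicle, above background on 2 of the 3 arrays, and ranged from 9.56 to 10.00 (median 9.69) with IBMX/Dex, a difference of -2.59 ± 0.43 (adjusted p 0.00012).

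Several regulators that act in the later differentiation program were already expressed. Of 20 pro-adipogenic factors 15 were above background (median 9.18), of 23 anti-adipogenic factors 16 (median 7.94) and of 15 regulators of commitment 10 (median 9.11), beside 45.2% of all genes. The anti-adipogenic count was 9 at the 99th percentile level. Pparg, the nuclear receptor that drives fat cell formation, was at 10.06, 10.32 and 9.57, above background by over 3 log2 units on each array. Cebpb was at 10.18, 8.80 and 10.11, lowest on array 2 by 1.3 log2 units, and Cebpd at 8.15, 7.57 and 8.25, lowest on the same array. Cebpa, which acts with PPARγ in the mature cell, was at 6.35, 6.05 and 5.71 at or below background on each array.

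None of these 4 factors passed against IBMX/Dex without the block. The differences were -0.36 ± 0.56 for Pparg (adjusted p 0.39), -0.75 ± 0.79 for Cebpb (adjusted p 0.21) and 0.73 ± 0.47 for Cebpd (adjusted p 0.052), and Cebpa was too dim to be tested. With the replicate block all 3 passed, at adjusted p of 0.024, 0.012 and 0.001, Pparg and Cebpb lower and Cebpd higher in vehicle. Vehicle and IBMX/Dex values overlapped for each of the 3 genes.

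Other activators that passed were split in direction, 4 higher and 2 lower of 17 tested, beside 6.44% and 5.47% of all genes. Blocked counts over the list were 6 and 5, beside 15% and 14.2%. Klf6, a Krüppel-like factor, was at 11.48, 11.26 and 11.53 in vehicle and 10.15 to 10.44 (median 10.32) with IBMX/Dex (1.13 ± 0.23, adjusted p 0.0004). Stat5a and Stat5b, the factors that carry growth hormone and prolactin signals, were at 8.84, 8.95 and 9.08 and at 8.79, 8.48 and 8.64, higher by 0.92 ± 0.26 (adjusted p 0.002) and 1.11 ± 0.45 (adjusted p 0.0091). Klf5, which acts downstream of C/EBPβ on the Pparg promoter, was at 9.67, 8.99 and 9.55 beside 10.45 to 10.63 (median 10.58), a difference of -1.15 ± 0.33 (adjusted p 0.0022). The vehicle arrays did not overlap the IBMX/Dex arrays for any of these 4 genes. Of all tested genes 10.4% lay wholly above and 9.3% wholly below.

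Factors that hold cells in the precursor state showed no single level. Ctnnb1, the β-catenin of Wnt signalling, was at 11.36, 11.23 and 11.66 and Sox9 at 10.73, 10.48 and 10.98, whereas the ligand Wnt10b was at 6.09, 6.03 and 5.91 and Gata3 at 7.21, 6.79 and 6.84, of which Wnt10b was below background on each array. Of 21 tested, 2 were higher and 2 lower in vehicle, beside 6.44% and 5.47% of all genes. Blocked counts were 6 and 6, beside 15% and 14.2%. Klf7, at 7.98, 7.96 and 8.45, was higher by 1.27 ± 0.39 (adjusted p 0.0025), and Klf3, at 10.06, 9.93 and 10.02, by 0.64 ± 0.22 (adjusted p 0.0043). Id2, an inhibitor of helix-loop-helix factors, was at 9.95, 9.05 and 6.47, of which the value on array 3 was below background, while the 6 IBMX/Dex arrays lay between 11.42 and 11.63. The difference was -3.03 ± 1.37 (adjusted p 0.014), with vehicle array 3 the lowest of the 9.

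Among commitment regulators the BMP receptor Bmpr2 was bright (11.30, 11.87 and 12.20), as were Tcf7l1 (10.43, 10.71 and 10.67) and the zinc finger repressor Zfp521 (10.35, 10.45 and 9.63). Ebf1, a factor of early fat cell fate, was at 10.43, 10.05 and 9.63. Its paralog Ebf3 was at 9.16, 9.04 and 9.12 and lower than with IBMX/Dex by 0.54 ± 0.23 (adjusted p 0.012). It was 1 of 3 commitment genes to pass of 12 tested, 2 higher and 1 lower, beside 6.44% and 5.47% of all genes. Blocked counts were 3 higher and 2 lower, beside 15% and 14.2%. In the unblocked fit Ebf3 alone passed without vehicle array 1 or 2, scrambled array 3 or CD24 siRNA array 1 or 3. The commitment factor Zfp423, at 6.56, 6.27 and 6.38, the ligand Bmp4, at 5.64, 5.73 and 5.51, and the brown fat factor Prdm16, at 6.57, 6.39 and 6.64, were not above background on all 3 arrays.

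**Figure D3:**
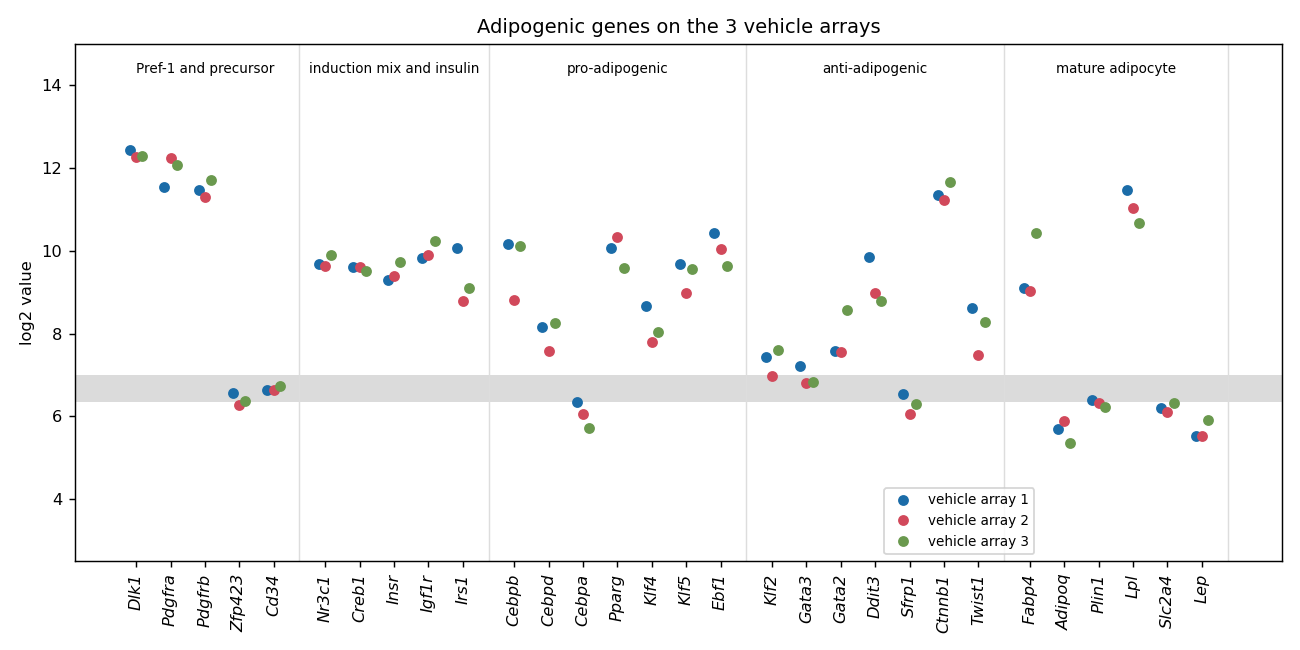
Points are the log2 intensities (vertical axis) of named genes on vehicle arrays 1, 2 and 3, with precursor markers, receptors of the induction signals, activators, inhibitors and mature fat cell genes in turn along the horizontal axis, and the grey band is background (6.35 to 6.98). Dlk1, Pdgfrb, Pparg and Lpl lie well above the band on all 3 arrays, whereas Cebpa, Adipoq, Plin1 and Lep lie at or below it.

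Genes of the mature fat cell ranged from bright to below background. Of 25, 13 were above background, a share near the 45.2% of all genes, with a list median of 7.37. Fasn and Scd1, which make and desaturate fatty acids, were at 10.95, 11.22 and 11.39 and at 10.68, 11.28 and 11.27. Lpl, the lipase that takes fatty acids from circulating fat, was at 11.47, 11.04 and 10.67. The fatty acid binding protein Fabp4 was at 9.10, 9.03 and 10.44, so array 3 exceeded the others by 1.3 log2 units. In contrast adiponectin (Adipoq) was at 5.68, 5.89 and 5.35, perilipin 1 (Plin1) at 6.38, 6.32 and 6.22, leptin (Lep) at 5.52, 5.53 and 5.91 and the insulin-responsive glucose carrier Slc2a4 at 6.20, 6.10 and 6.32. None of these 4 was above background on all 3 arrays, nor was the fatty acid carrier Cd36 at 6.97, 6.58 and 6.61.

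Of 17 such genes tested, 2 were higher and 4 lower in vehicle, beside 6.44% and 5.47% of all genes. Scd1 was lower by 0.92 ± 0.44 (adjusted p 0.017) and Fasn by 0.65 ± 0.30 (adjusted p 0.015), with IBMX/Dex values from 11.58 to 12.27 (median 12.00) and from 11.67 to 12.03 (median 11.84). Dgat1, which makes the last step of triglyceride synthesis, was at 9.89, 9.95 and 9.95 and lower by 0.45 ± 0.19 (adjusted p 0.011). Plin2, the droplet coat protein found in many cell types, was at 10.13, 9.79 and 10.03 in vehicle beside 8.46 to 9.14 (median 8.74), higher by 1.23 ± 0.37 (adjusted p 0.0023). Fabp4 did not pass (-0.11 ± 1.05, adjusted p 0.91).

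The receptors for dexamethasone, insulin and IGF1 were above background on all 3 arrays. Of 15 genes of glucocorticoid reception 13 were above background, of 17 insulin and IGF genes 16, and of 21 cyclic AMP genes 13, beside 45.2% of all genes. Nr3c1, the glucocorticoid receptor, was at 9.68, 9.62 and 9.89. It was higher in vehicle than with IBMX/Dex, where it ranged from 8.31 to 8.76 (median 8.41), by 1.28 ± 0.24 (adjusted p 0.00024), or 2.43-fold. Its coactivator Ncoa2, at 9.16, 9.24 and 9.40, was higher by 0.48 ± 0.21 (adjusted p 0.011). Fkbp5, the receptor's co-chaperone and a direct glucocorticoid target, lay just above background at 7.18, 7.20 and 7.33 and ranged from 8.85 to 9.16 (median 9.10) with IBMX/Dex, a difference of -1.82 ± 0.22 (adjusted p 1.9e-05). These 3 were the genes of the list to pass, of 14 tested, beside 11.9% of all genes. Under the replicate block 3 higher and 3 lower passed, beside 15% and 14.2%. Hsd11b1, which regenerates active glucocorticoid inside the cell, was at 6.48, 6.35 and 7.59, clear of background by 1 log2 unit only on array 3.

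In the cyclic AMP pathway, Prkaca, the catalytic subunit of protein kinase A, was at 10.40, 10.97 and 11.07, the adenylyl cyclase Adcy6 at 9.92, 9.86 and 9.98, and the transcription factor Creb1 at 9.60, 9.61 and 9.51. Of 18 phosphodiesterases, a family that IBMX inhibits in part, 6 were above background, beside 45.2% of all genes, and 2 were at the 99th percentile level. The median of the family was 6.38. The highest was Pde4a at 8.53, 8.21 and 8.73, and Pde3b, an insulin-regulated form of mature fat cells, was at 5.81, 5.99 and 5.58.

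Of 8 phosphodiesterases tested, 3 passed, all lower in vehicle, beside 5.47% of all genes. Blocked counts were 1 higher and 4 lower, beside 15% and 14.2%. Pde10a was at 7.34, 7.49 and 7.93 beside 8.61 to 9.31 (median 9.03) with IBMX/Dex (-1.38 ± 0.40, adjusted p 0.0022). Pde4d was at 7.14, 7.27 and 7.24 beside 7.99 to 8.48 (median 8.29) (-1.06 ± 0.26, adjusted p 0.0011) and Pde4b at 6.82, 6.67 and 6.65 beside 7.64 to 7.88 (median 7.73) (-1.02 ± 0.21, adjusted p 0.00039). On vehicle array 2 Pde4b was below background. Crem, whose product includes a repressor induced by cyclic AMP, also lay at background in vehicle (6.51, 6.43 and 6.53) and was lower by 0.53 ± 0.18 (adjusted p 0.0047). It was 1 of 2 cyclic AMP genes to pass of 18 tested, beside 11.9% of all genes, and the only 1 without vehicle array 3.

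On the insulin side, Igf1r was at 9.83, 9.89 and 10.24 and Insr at 9.29, 9.38 and 9.72, both highest on array 3, with a gap of about 0.5 between the receptors' probe sets that cannot be read as a difference in transcript number. Of 16 tested, 2 were higher and 2 lower in vehicle, beside 6.44% and 5.47% of all genes. Under the replicate block 5 were higher and 2 lower, beside 15% and 14.2%. The receptor substrates differed in opposite directions. Irs1 was at 10.07, 8.78 and 9.10 in vehicle and 7.25 to 8.20 (median 7.60) with IBMX/Dex (1.62 ± 0.66, adjusted p 0.0096), and Irs2 was at 9.85, 9.47 and 10.00 in vehicle and 11.10 to 11.47 (median 11.24) with IBMX/Dex (-1.49 ± 0.31, adjusted p 0.00044). Pik3r1, the regulatory subunit of phosphoinositide 3-kinase, was at 9.73, 10.01 and 9.63 and lower by 1.02 ± 0.29 (adjusted p 0.002).

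The growth arrest stated for the cells was set against their cell cycle transcripts, and most inhibitors and all measured mitotic genes were above background. Of 22 G1 cyclins, kinases and inhibitors 19 were above background, beside 45.2% of all genes, with the inhibitors Cdkn1c and Cdkn2d not among them. Of 18 genes known from growth-arrested fibroblasts 17 were. Cdkn1a, which encodes the inhibitor p21, was at 11.34, 11.62 and 12.29, Cdkn2b, for p15, at 9.99, 9.80 and 10.60, and Cdkn1b, for p27, at 9.49, 9.74 and 9.52. The D-type cyclins Ccnd1 (11.43, 10.69 and 11.72) and Ccnd2 (11.71, 11.78 and 11.52) and their kinase Cdk4 (12.60, 12.76 and 12.65) were bright too. All 21 measured S phase genes and all 23 mitotic genes exceeded background on all 3 arrays, beside 45.2% of all genes. Their medians were 8.67 and 8.96, and 16 of the 23 mitotic genes also exceeded the 99th percentile level.

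Against IBMX/Dex, Cdkn2b was higher in vehicle (1.10 ± 0.38, adjusted p 0.0043). It was 1 of 2 G1 genes to pass of 21 tested, 1 higher and 1 lower, beside 6.44% and 5.47% of all genes. Blocked counts were 3 higher and 2 lower, beside 15% and 14.2%. The lower gene of the unblocked fit did not pass without vehicle array 2 or 3, scrambled array 1 or 3 or any 1 of the CD24 siRNA arrays. Also higher was Gas1, a membrane protein first described in arrested fibroblasts, at 10.72, 10.24 and 10.92 beside 9.46 to 9.76 (median 9.57), a difference of 1.03 ± 0.34 (adjusted p 0.0035). Pmp22, another growth arrest gene, was at 10.64, 10.92 and 10.93 and lower in vehicle by 0.69 ± 0.21 (adjusted p 0.0026). In all, 3 growth arrest genes were higher and 2 lower of 18 tested, beside 6.44% and 5.47% of all genes. Under the replicate block 4 were higher and 7 lower, beside 15% and 14.2%. The 5 of the unblocked fit became 3 without vehicle array 2 or CD24 siRNA array 2 and 2 without scrambled array 3. Of 21 S phase genes 3 were lower in vehicle and none higher (5.47% and 6.44% of all genes), 8 were lower with the replicate block (14.2% of all genes) and 1 was without vehicle array 3. Rrm2, a subunit of the enzyme that makes deoxynucleotides, was at 7.10, 7.36 and 7.43 beside 8.47 to 9.04 (median 8.63), a difference of -1.41 ± 0.35 (adjusted p 0.0011). None of 23 mitotic genes passed, and 5 were lower with the replicate block, beside 14.2% of all genes.

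Genes of cholesterol synthesis stood out as a group that was higher in vehicle. All 17 measured members were above background (median 9.59), beside 45.2% of all genes. Of these, 9 were higher and 2 lower in vehicle, beside 6.44% and 5.47% of all tested genes. The counts were 12 and 2 under the replicate block, beside 15% and 14.2%, and 6 and 0 without vehicle array 3. The median difference of the 17 was 0.54, beside -0.02 over all tested genes, and between arrays of the same replicate number it was 0.43, 0.64 and 0.66. Fdps, which makes farnesyl diphosphate, was at 10.90, 11.20 and 11.26 beside 9.89 to 10.12 (median 10.01) with IBMX/Dex (1.11 ± 0.25, adjusted p 0.00053). Insig1, the endoplasmic reticulum protein that restrains the pathway, was at 9.98, 10.63 and 10.30 beside 8.65 to 9.40 (median 9.25) (1.13 ± 0.39, adjusted p 0.0045). Srebf2, the transcription factor of the pathway, was at 10.68, 10.85 and 10.90 beside 9.89 to 10.19 (median 10.04) (0.76 ± 0.23, adjusted p 0.0025). Msmo1, Hmgcs1 and Mvk, 3 further enzymes, were higher by 1.06, 0.77 and 0.59. The 2 lower members, Pmvk and Hsd17b7, differed by -1.90 and -0.78, and neither passed under every alternative.

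**Figure D4:**
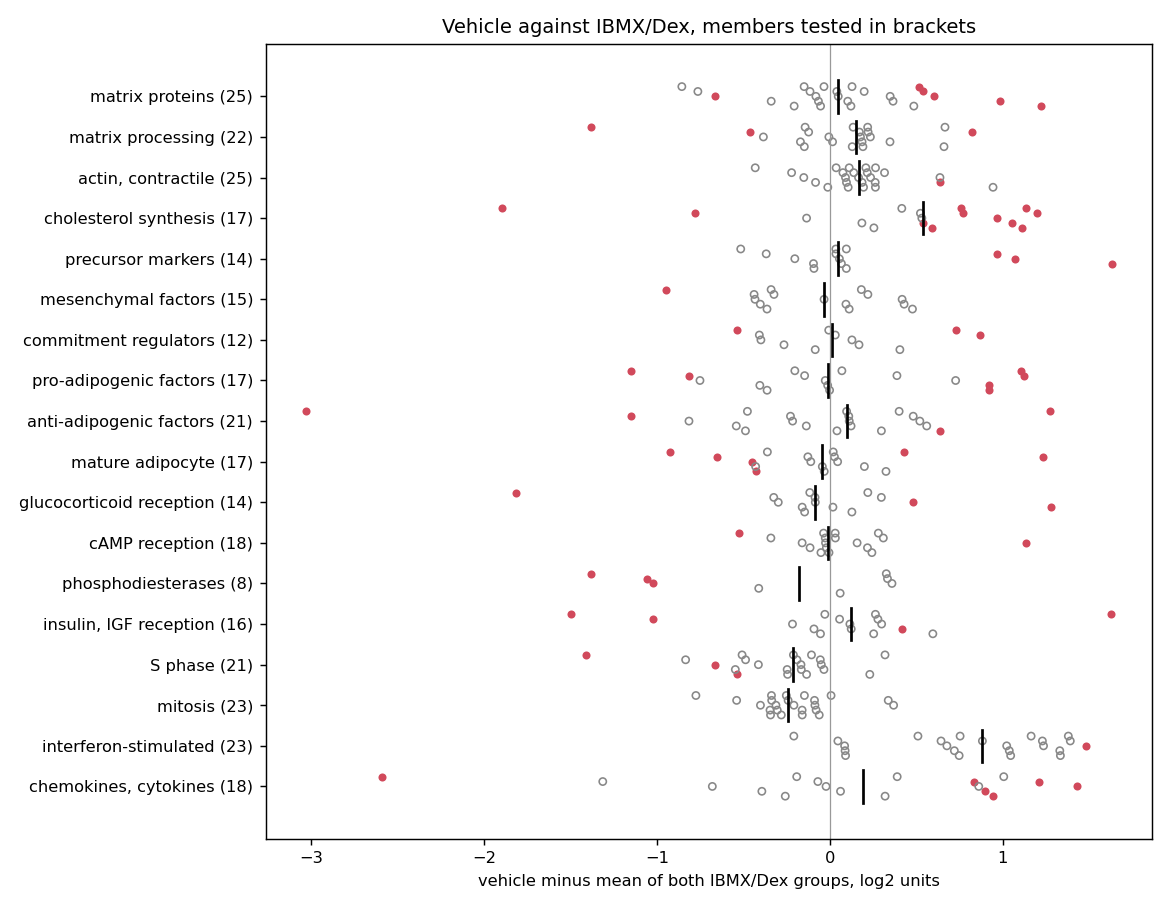
Each point is 1 tested gene of the list on the vertical axis at its log2 difference, vehicle minus the mean of both IBMX/Dex groups (horizontal axis), filled red where it passed an adjusted p of 0.05 and open grey where it did not, and black bars are list medians. Cholesterol synthesis has its median at 0.54 with 9 genes passing on the higher side, and phosphodiesterases have 3 passing genes on the lower side and none on the higher.

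Within the vehicle group, 3 functional sets did not vary gene by gene but shifted together from array to array. The IBMX/Dex arrays of the same replicate number, whose short labels carry a common code with the vehicle array, were set beside them. Over all genes, 2599 of 12630 (20.6%) differed by replicate number among the 6 IBMX/Dex arrays alone, in a limma F test that used no vehicle array. Of the 823 tested genes with a range of at least 2-fold in vehicle, 545 (66.2%) passed that test. For 640 of them (77.8%) the number with the highest IBMX/Dex mean was the number of the highest vehicle array, beside 54.5% of all tested genes.

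Mitotic genes were highest on vehicle array 2, all 23 of 23, whereas 23.2% of all genes above background on any array had that array as their highest. Their list medians were 8.08, 9.65 and 8.90 on the 3 vehicle arrays, and 19 of the 23 had a range of at least 2-fold, beside 6.71% of all genes. Ccnb2, a cyclin of mitotic entry, was at 8.69, 11.24 and 10.10, Mki67, the proliferation antigen, at 8.01, 10.26 and 9.25, and Kif11, the spindle motor, at 7.41, 9.79 and 8.62. The order of arrays was the same in these genes, array 1 lowest and array 2 highest, a spread of 5.88-fold for Ccnb2. In the IBMX/Dex arrays all 23 passed the test for replicate number, beside 20.6% of all genes, and number 2 was highest for all 23, with list medians of 8.17, 10.13 and 8.92 in the scrambled group and 8.58, 9.99 and 8.81 in the CD24 siRNA group. The 2-fold count rests on arrays 1 and 2: it was 11 without array 1, 5 without array 2 and 19 without array 3. S phase genes followed less widely, 17 of 21 highest on array 2 but 3 with a 2-fold range.

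Promoters of mitotic genes often hold the cell cycle homology element, with the letters TTTGAA, and the CCAAT box. RefSeq promoter sequences (GRCm38.p6) were held for 18 of the 23 genes, and TTTGAA on either strand was found in the 250 bases before the start of 8 of them (44.4%), beside 18.3% of 27025 genes in the table. CCAAT was found in 15 of 18 (83.3%), beside 37.5%. The 4 stretches printed here, each from within those 250 bases of a mitotic gene with over 2-fold spread in vehicle, run 5′ to 3′ on the gene's strand with TTTGAA or its reverse complement in capitals. They are Ccnb2 (chr9:70421671-70421766, minus strand), Kif11 (chr19:37376318-37376381, plus strand, motif on the opposite strand), Mki67 (chr7:135716427-135716522, minus strand, 2 matches) and Prc1 (chr7:80294401-80294475, plus strand), a spindle midzone gene at 7.13, 8.84 and 7.76. A match describes the letters and is not shown to be a bound site.
Ccnb2: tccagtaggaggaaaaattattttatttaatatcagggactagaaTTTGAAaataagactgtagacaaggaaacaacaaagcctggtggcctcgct
Kif11: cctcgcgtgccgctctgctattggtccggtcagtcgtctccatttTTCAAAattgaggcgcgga
Mki67: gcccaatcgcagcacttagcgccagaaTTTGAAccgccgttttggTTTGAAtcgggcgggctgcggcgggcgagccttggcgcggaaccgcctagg
Prc1: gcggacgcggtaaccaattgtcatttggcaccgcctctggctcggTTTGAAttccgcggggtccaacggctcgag

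Interferon-stimulated genes were high on vehicle array 1. Of 26 above background on any array 25 were highest there, beside 41.6% of all genes, and 22 had a range of at least 2-fold, beside 6.71%. Their list medians were 9.81, 7.45 and 7.63, a median range of 2.26 log2 units, so array 1 stood apart and arrays 2 and 3 lay close together. Usp18, which trims the ubiquitin-like ISG15 from proteins, was at 11.67, 8.38 and 9.22, Ifit1, a sensor of foreign RNA, at 11.62, 8.51 and 8.64, and the chemokine Cxcl10 at 10.86, 7.47 and 7.54. Ifit3, at 7.59, 8.08 and 7.41, was the exception to the order. Without array 1 none of the set had a 2-fold range, and without array 2 or 3 there were 20 and 21. In the IBMX/Dex arrays list medians were 8.36, 6.81 and 6.96 in the scrambled group and 7.72, 7.68 and 6.78 in the CD24 siRNA group, so CD24 siRNA array 2 was not low as vehicle array 2 was. The test for replicate number was passed by 7 of 23, beside 20.6% of all genes, and this count was unstable. It was 1 without scrambled array 1, 18 without scrambled array 2, 12 without scrambled array 3, 19 without CD24 siRNA array 2 and 1 with no filter on low values.

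This set also bore on the comparison with IBMX/Dex. Its median difference was 0.88 over 23 tested genes, of which 1 passed without the block, beside 11.9% of all genes. With the block 11 passed, all higher in vehicle, beside 15% of all genes. In the unblocked fit 2 passed without vehicle array 2 or scrambled array 1. Between arrays of the same number the median difference was 1.60, 0.19 and 0.90 for numbers 1, 2 and 3, positive for 22, 17 and 20 of the 23 genes. Without vehicle array 1 the median was 0.19. The gene that passed was Ifit2, at 7.81, 7.43 and 7.28 beside 5.46 to 6.31 (median 6.18), with a fitted difference of 1.48 ± 0.50 (adjusted p 0.0039). All 6 IBMX/Dex values were below background, so against the background levels vehicle was at least 1.87-fold higher. Ifit2 was among the members that varied by under 2-fold in vehicle.

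The interferon-stimulated response element, to which STAT and IRF factors bind, has a core of the letters GAAA, 2 bases of any kind and GAAA again. Of 20 measured members with a RefSeq promoter (GRCm38.p6), 9 (45%) held that core on either strand within 250 bases before the start, beside 936 of 27025 genes (3.46%) in the table and 0 of 24 actin genes. The 4 members printed next varied by over 4-fold in vehicle, and each stretch is from within those 250 bases, 5′ to 3′ on the gene's strand, with the core or its reverse complement in capitals. They are Cxcl10 (chr5:92349048-92349139, minus strand), Ifit1 (chr19:34640759-34640858, plus strand, 2 matches on the opposite strand), Isg15 (chr4:156200830-156200929, minus strand, 2 marked matches), the ubiquitin-like modifier at 7.87, 5.33 and 6.11, and Gbp3 (chr3:142559954-142560043, plus strand, marked match on the opposite strand), a guanylate binding protein at 8.34, 6.32 and 5.99. Matches were marked without overlap. In Isg15 and Gbp3 a further match overlaps a marked one, and its bases outside the marked ones are in lower case. Here too the letters are a description only.
Cxcl10: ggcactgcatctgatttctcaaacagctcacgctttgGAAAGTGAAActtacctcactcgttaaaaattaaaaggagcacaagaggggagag
Ifit1: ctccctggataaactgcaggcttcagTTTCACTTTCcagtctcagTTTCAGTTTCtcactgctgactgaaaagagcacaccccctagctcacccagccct
Isg15: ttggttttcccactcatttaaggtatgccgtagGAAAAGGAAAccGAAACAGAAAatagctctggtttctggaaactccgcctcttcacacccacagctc
Gbp3: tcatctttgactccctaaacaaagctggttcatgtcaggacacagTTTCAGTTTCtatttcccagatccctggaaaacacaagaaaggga

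Actin and contractile genes made the third set, also highest on vehicle array 1, in 24 of the 25 above background on any array, beside 41.6% of all genes. The shift was smaller, with list medians of 11.50, 10.72 and 10.77. Of the 25, 7 had a 2-fold range, beside 6.71% of all genes. Vcl, the focal adhesion protein vinculin, was at 12.11, 10.78 and 10.90, and Acta2, smooth muscle actin, at 13.03, 12.44 and 12.01. Myl12a, a myosin light chain, was at 11.82, 9.57 and 11.20 and differed from the others in that array 2 was low alone. Without array 1 the 2-fold count was 1, and it was 5 without array 2 and 4 without array 3. In the IBMX/Dex arrays 18 of 25 were highest at the same number as in vehicle, beside 54.5% of all genes, and 8 of 25 passed the test for replicate number, beside 20.6%. The 8 became 5 without scrambled array 1, scrambled array 2 or CD24 siRNA array 3, and 4 with no filter on low values. Against IBMX/Dex 1 of 25 tested was higher in vehicle, beside 6.44% of all genes. Blocked counts were 3 higher and 1 lower, beside 15% and 14.2%.

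**Figure D5:**
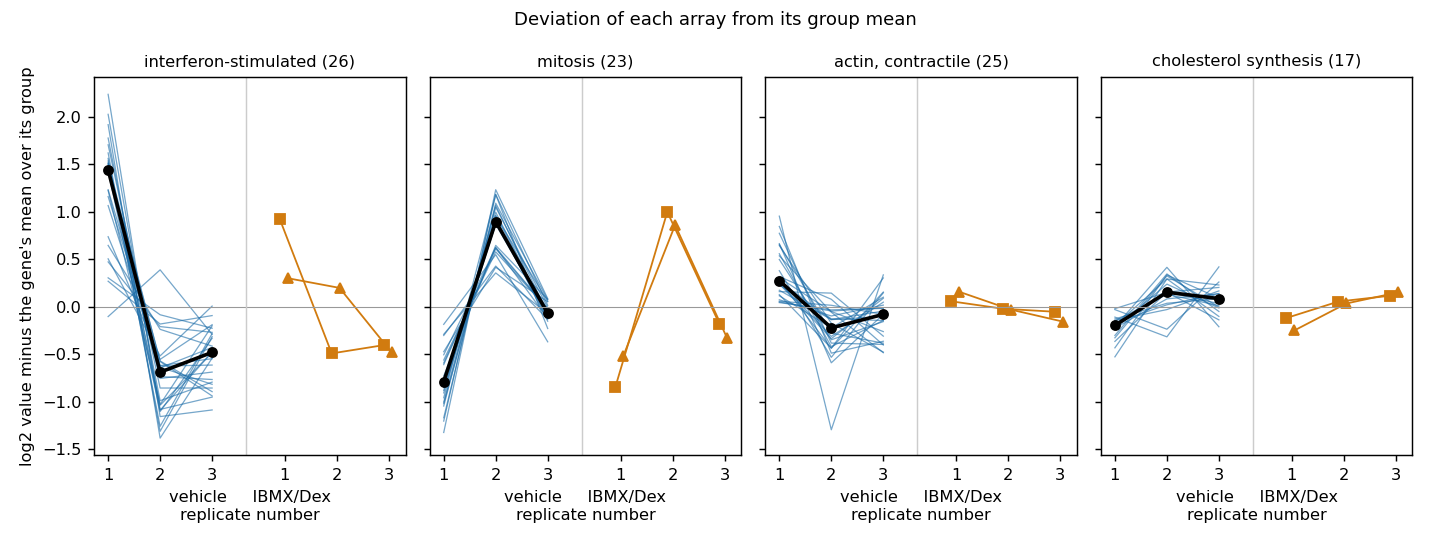
In each plot a blue line is 1 gene of the set, as the log2 deviation (vertical axis) of vehicle arrays 1, 2 and 3 (horizontal axis) from the gene's vehicle mean, and the black line is their median. Orange squares and triangles are the medians of the same deviations in the scrambled and CD24 siRNA arrays of that number, each from its own group mean. Mitotic genes peak at number 2 in all 3 groups, interferon-stimulated genes (26) peak at number 1 in vehicle, actin genes (25) are highest at number 1 and cholesterol genes (17) show no peak at number 1.

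Some of the widest spreads belonged to single genes outside these sets. Apod, the lipid carrier apolipoprotein D that accumulates in arrested fibroblasts, was at 11.74, 7.13 and 7.76, a range of 4.61 log2 units or 24.4-fold. Its level also differed by replicate number in the IBMX/Dex arrays (adjusted p 0.0056). Vehicle array 3 stood alone for several secreted products: the stromelysin Mmp3 was at 7.88, 7.47 and 10.61, the alarmin Il33 at 6.92, 6.92 and 9.39 and haptoglobin, Hp, at 9.10, 9.34 and 11.15. Matrix genes Postn, for periostin, and Ogn, for osteoglycin, went the other way, at 11.33, 10.62 and 8.53 and at 9.23, 8.45 and 6.39, lowest on array 3. The commonly used reference gene Hprt was at 9.27, 8.54 and 8.10, a range of over 2-fold, whereas B2m and Gapdh stayed within 0.2. Labels give no property of the cultures that separates array 3 from the others, and what these spreads rest on was not tested.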

How the data were processed

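RNA (250 ng, biotin-labelled) from 9 samples of 3T3-L1 cells was hybridised to 1-colour mouse arrays. The deposited values are log2 intensities that the authors made with RMA in the oligo package, per the submitters' processing notes (versions not given in the sources used here). The table holds 41345 probe sets: 23521 with 1 symbol, which gave 22180 genes, 1814 with more and 16010 unnamed. Genes were represented by the probe set brightest over the 9 arrays (1082 genes had several). Genes at or above the table's median (6.51) on at least 3 of 9 arrays, 12630 in all, were fitted with limma 3.58.1 (R 4.3.3; other steps in Python 3.11.15), with Benjamini-Hochberg adjustment, after the fits were checked on simulated data. Same-numbered arrays of different groups correlated in their deviations from group means (r from 0.38 to 0.73; other pairs at most 0.12), and their short labels share a code, so the replicate number was taken as pairing them and as a block in an alternative. The number of arrays limits the precision: the median 95% interval of a difference was ± 0.30. Named genes were the 30 with the highest mean, the 15 with the widest range, and members of 36 lists (608 of 654 members measured). The comparison, members and lists were chosen with earlier results of these data known. Alternatives changed the background level, low-value filter, normalization, probe-set rule, arrays and block.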

Additional observations from a re-analysis of the deposited data

How the results depend on the processing

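The count of genes above background (10035) stayed within 1.5 times under every alternative run, from 6944 to 11896. The 882 genes with a 2-fold range became 1355 with no filter on background and 333 to 557 when a vehicle array was left out. Dropping the filter can only raise this count and leaving out an array can only lower it. These values therefore do not measure how stable the tail of the spread is. The 1505 genes passing against IBMX/Dex became 3696 with the replicate block, 876 against the scrambled group alone and 840 against the CD24 siRNA group alone, where fewer arrays enter the contrast. Leaving out each array in turn gave 823 to 1345, and with the replicate block, in fits added after the data were seen, 3216 and 2958 without vehicle 2 and 3, 3083 and 2825 without scrambled 2 and 3, 3248, 2964 and 3249 without CD24 siRNA 1, 2 and 3, and 2638 and 3336 at the extremes. The 2599 genes differing by replicate number became 1007 with no filter on low values and 865 to 2767 when an array was left out, lowest without scrambled array 1, 1528 without scrambled array 2 and 1636 without CD24 siRNA array 3. Of the 97 named genes that passed against IBMX/Dex, 55 passed under every alternative that tested them with the leave-outs of the block set aside. The other 42 did not, 36 of them without vehicle array 3, and no sign turned. The replicate block ended no call of a gene given here with an adjusted p; it added those of Pparg, Cebpb and Cebpd and the counts printed beside the lists, and changed no other call in the text. Mean levels of 651 named genes under 4 other processings lay within 1 SD of the value given in 2547 instances and beyond it in 57. Depth on arrays is signal over background, which was highest on vehicle array 2 (6.98), and genes between 6.35 and 6.98 cannot be told from it on every array. Cd24a, the siRNA target, was at 10.15, 10.16 and 11.72 on the CD24 siRNA arrays and 11.19, 11.73 and 11.81 on the scrambled ones, so it was not low on the array labelled CD24 siRNA replicate 3.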

Other observations

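Of 20 immediate early genes, which respond quickly to stimulation, 15 were above background in vehicle, beside 45.2% of all genes. Their median was 8.22, and 9 were above background at the 99th percentile level. Of these 20 genes, all tested, 1 was higher and 6 were lower than with IBMX/Dex, beside 6.44% and 5.47% of all genes. The higher gene, Egr1, did not pass without vehicle array 3. Under the replicate block 1 was higher and 9 were lower, beside 15% and 14.2%. Nr4a1, an orphan nuclear receptor induced by cyclic AMP, was at 8.60, 7.80 and 9.27 in vehicle and 11.25 to 12.09 (median 11.73) with IBMX/Dex, a difference of -3.15 ± 0.69 (adjusted p 0.00053). Its relative Nr4a3 was at 5.68, 5.28 and 5.34, below background on each array, and at 8.24 or more (median 8.49) on the IBMX/Dex arrays (adjusted p 4.7e-05), at least 3.89-fold higher there when set against the vehicle background levels. Fos, by contrast, was at 6.26, 6.17 and 6.54, near background. Among clock genes, 2 were higher and 3 lower of 15 tested, beside 6.44% and 5.47% of all genes. Without vehicle array 2 or 3 these counts were 1 and 2. Blocked counts were 5 and 6, beside 15% and 14.2%. Per1, which glucocorticoids and cyclic AMP both induce, was at 9.59, 9.31 and 9.65 beside 10.97 to 11.08 (median 11.04), a difference of -1.52 ± 0.22 (adjusted p 5.7e-05). The repressor Nr1d1 was at 9.17, 9.25 and 9.09 and higher in vehicle by 0.70 ± 0.21 (adjusted p 0.0023). Of 19 heat shock and unfolded protein genes 4 were lower and none higher (5.47% and 6.44% of all genes), 9 lower and 3 higher with the replicate block (14.2% and 15%), and 2 lower without vehicle array 2 or 3. Hsph1, a heat shock protein that assists refolding, was at 9.07, 8.56 and 9.26 beside 10.54 to 10.95 (-1.76 ± 0.35, adjusted p 0.00032).

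Mdm2, the ubiquitin ligase that restrains p53, ranked 30 of 22180 genes, at 13.09, 13.28 and 13.14. The next gene on the chromosome in RefSeq's order, the sugar carrier Slc35e3, ranked 31, at 13.06, 13.24 and 13.08, a difference from Mdm2 of under 0.1 on each array. Whether the probe sets of these neighbours read separate transcripts was not tested. Other genes nearby were bright too, with means of 12.13 for the chaperonin subunit Cct2, 11.62 for Rap1b, 10.45 for Cpsf6, 10.32 for Nup107 and 10.30 for Yeats4, whereas Il22 was at 2.32 and Ifng at 5.89.

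A few single genes with wide ranges followed the order of the arrays' background levels, array 1 lowest and array 2 highest. The mitotic genes Ccnb2, Mki67 and Kif11 had the same order. Cpm, which neighbours Mdm2, was at 6.92, 9.60 and 8.33, Lyz1 at 5.96, 9.41 and 8.15, Btbd35f1 at 6.43, 9.84 and 8.41 and Zfp972 at 5.43, 8.63 and 7.31. The chemoreceptor level had the same order, at 6.35, 6.98 and 6.52, with a range far smaller than that of these genes, and its part in them was not tested.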
